A study of Homo sapiens and Mus musculus with 16 samples.

Results

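The HOX genes described here are the members of the HOXA, HOXB, HOXC and HOXD clusters, taken by symbol (HOX, a cluster letter and a number), which gave 39 of the 22286 genes in the human count table and 24 of the 15881 genes in the mouse count table. The other 15 human members have no mouse value analysed here. RNA was sequenced from P-bodies, cytoplasmic granules of RNA and protein that were sorted as GFP-LSM14A particles, and from the cytoplasmic fraction of the same cells. In the paper's methods the P-bodies were sorted out of this fraction, and its aliquots were taken before sorting. The cytoplasm samples were therefore not cleared of P-bodies. There were 16 libraries, with 2 P-body and 2 cytoplasm libraries for each of 4 cell types, which the study describes as biologically independent samples. The labels do not say whether they came from separate cultures, and p-values measure the spread between these libraries. HEK293T-LSM14a-GFP is a human embryonic kidney line, and mESC are mouse embryonic stem cells of the line KH2-LSM14a-GFP grown in serum with LIF. Both received GFP-LSM14A in a lentiviral plasmid with an EF1a promoter and were sequenced as total RNA (Snap seq, which primes at random). Liver bud progenitors and neurons at day 20 both derive from UCLA4-LSM14a-GFP, a human ES cell line that carries the fusion at the AAVS1 locus, and were sequenced as polyA RNA. Library type and cell type therefore cannot be told apart when HEK293T or mESC are set beside the other cells, and such values are given without a test. Every group carried the GFP fusion.

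HOX genes encode homeodomain transcription factors that give cells their position along the head-to-tail axis of the embryo. They lie in 4 clusters, and members at the same place in different clusters form 13 paralog groups. Low-numbered groups are switched on first and reach furthest forward, into the hindbrain, and respond readily to retinoic acid, whereas high-numbered groups mark the posterior trunk, limb and urogenital tract. HOX proteins bind DNA together with TALE homeodomain partners of the PBX and MEIS families. The clusters also hold microRNA genes, among them those of miR-10 and miR-196, which target HOX transcripts. P-bodies store mRNAs together with translational repressors and the microRNA machinery.

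Levels are given as CPM, counts scaled to library size after TMM normalization within a cell type. A member was taken as expressed where its 4 libraries of a cell type averaged 1 CPM or more, as well counted with a mean of at least 50 counts per library, and as weakly counted below that. Library totals lay between 6368953 and 17972284 counts, so that 3 counts, taken as the floor of detection, equalled 0.167 to 0.471 CPM. Replicates correlated across genes at a Spearman rho of 0.982 or more, except for neuron P-bodies at 0.919. All 10 neuronal markers had at least 1 CPM in neurons, where they summed to between 10930 and 12810 CPM. Neurons also held all 7 neural progenitor markers, at a sum of 1646 to 2595 CPM, and 5 of 7 measured pluripotency markers, at 83.49 to 272.9 CPM. In liver bud progenitors 11 of 12 hepatic markers had at least 1 CPM, with ALB below it and a sum of 257.2 to 488.6 CPM. However, all 7 measured pluripotency markers were also present there, at a sum of 1448 to 2838 CPM, and 9 of 10 neuronal markers at 516 to 656.5 CPM. All 8 pluripotency markers were present in mESC.

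The cell types differed widely in which HOX members they held. HEK293T expressed 33 of the 39 members, from every cluster, and 26 of them were well counted. Neurons expressed 8, all of paralog groups 1 to 4, and 5 of these were well counted. Liver bud progenitors expressed none at 1 CPM, since no library held more than 8 counts of any member. Mouse ES cells expressed 13 of 24 members, of which 2 were well counted. Summed over all members, the level in HEK293T was 901.9 and 868.5 CPM in P-bodies and 639.7 and 675.8 CPM in cytoplasm. In neurons it was 264.9 and 269.4 CPM in P-bodies against 231.7 and 224.3 CPM in cytoplasm. The mESC sums were 103 and 100.4 CPM against 81.61 and 76.15 CPM, and the liver bud sums were 5.159 and 6.213 CPM against 4.685 and 5.945 CPM. The fractions overlapped in liver bud progenitors, and the sums were higher in both P-body libraries of the other 3 cell types. In mESC this rested on TMM factors of 0.8675 and 0.8721 for P-bodies and 1.155 and 1.144 for cytoplasm. Scaled by library total only, the mESC fractions overlapped.

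**Figure D1:**
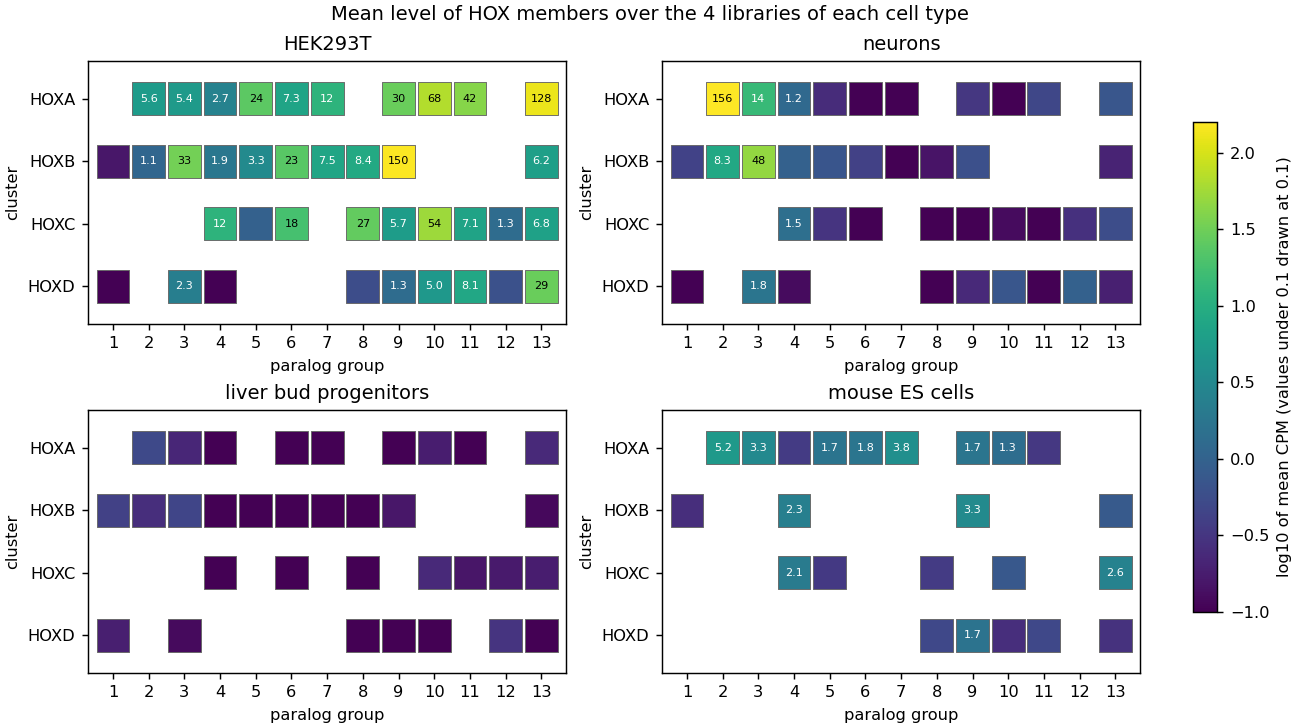
Mean CPM over the 4 libraries of each cell type for the HOX members tested there (1 position is not drawn), with paralog group on the x axis, cluster on the y axis, colour on a log10 scale, and the mean CPM written in squares of at least 1 CPM. HEK293T is filled along all clusters, neurons reach 1 CPM in drawn squares of groups 2 to 4, mESC mostly the HOXA cluster, and liver bud progenitors have no square at 1 CPM.

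The share of the HOX signal carried by each part of the clusters followed these patterns. In HEK293T, groups 9 to 13 took 69.5% to 71.4% of the summed level of a library and groups 1 to 4 took 11.8% to 12.8%. In neurons, groups 1 to 4 took 94.9% to 99.4%. In mESC, groups 1 to 4 took 72.9% to 77.5%. Per kilobase of transcript, which allows genes to be compared, HOXB9 stood highest in HEK293T with 58.08 CPM per kb, followed by HOXC10 with 27.58, HOXA10 with 26.65 and HOXA13 with 25.62 CPM per kb. HOXA2 led in neurons with 92.7 CPM per kb, ahead of HOXB3 with 14.63 CPM per kb. In mESC, Hoxa2 had 2.932 CPM per kb.

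Which HOX transcripts were enriched in P-bodies was first asked in HEK293T, where most members could be measured. Of the 33 expressed members, 12 were higher in P-bodies, 5 were lower and 16 did not pass (edgeR's quasi-likelihood test, adjusted p under 0.05). All 12 higher members were well counted. Those reported here by name are HOXA9, HOXC8, HOXC10, HOXA13, HOXA11, HOXB7, HOXB6, HOXB3, HOXA5, HOXA10 and HOXA7. Among all genes of at least 1 CPM, 32.0% were higher and 38.0% lower, and among all genes tested 19.3% and 22.8%, so the share of HOX members called higher was near the background and that of members called lower was below it. The median log2 change was -0.02 over the 33 expressed members and 0.18 over the 26 well counted ones, beside -0.13 over all genes of at least 1 CPM.

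HOXA9, a posterior member, had the largest change of the well counted members, with 44.5 and 43.18 CPM in the P-body libraries and 14.38 and 16.51 CPM in cytoplasm. It was 2.84-fold higher in P-bodies, or 1.51 ± 0.13 on the log2 scale (± SE throughout), at an edgeR adjusted p = 6.98e-16. The readthrough transcript HOXA10-HOXA9, which shares exons with it, was counted as a gene of its own at 13.37 and 16.08 CPM against 12.85 and 11.41 CPM, and did not pass (log2 change 0.28, adjusted p = 0.193). HOXC8, which patterns thoracic levels, had 36.96 and 37.03 CPM against 16.39 and 16.09 CPM, a log2 change of 1.19 ± 0.13 (adjusted p = 8.14e-12). HOXC10 had 74.74 and 72.31 CPM against 34.87 and 36.09 CPM, a log2 change of 1.05 ± 0.10 (adjusted p = 8.72e-15). In each of these, both P-body libraries stood above both cytoplasm libraries, and the spread within a fraction was small beside that gap. In hg38, HOXA9 (ENSG00000078399.19) lies at chr7:27162438-27175180 on the minus strand, and HOXC8 (ENSG00000037965.6) at chr12:54008985-54012769 and HOXC10 (ENSG00000180818.5) at chr12:53985065-53990279, both on the plus strand.

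HOXA13, a regulator of limb and genital development, had the highest CPM of the enriched members, with 156.1 and 169.7 CPM in P-bodies and 90.14 and 98.14 CPM in cytoplasm. Its log2 change was 0.79 ± 0.07 (adjusted p = 7.31e-15). HOXA11 had 54.17 and 48.86 CPM against 31.41 and 33.2 CPM, and HOXA10, which acts in the uterus and limb, 80.36 and 78 CPM against 55.36 and 57.2 CPM. Their log2 changes were 0.67 and 0.49. HOXB3 had 41.96 and 37.66 CPM against 25.71 and 26.81 CPM (log2 change 0.60). These 4 and HOXA9, HOXC8 and HOXC10 passed under every alternative processing that was tried.

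The other enriched members were closer to the threshold. HOXB6 had 31.75 and 25.3 CPM in P-bodies against 17.92 and 18.81 CPM, and HOXA5 30.03 and 27.45 CPM against 21.85 and 18.39 CPM. HOXB7 had 9.257 and 9.169 CPM against 6.829 and 4.767 CPM. HOXA7 had 14.47 and 12.71 CPM against 9.079 and 10.38 CPM. Their log2 changes were 0.63, 0.51, 0.66 and 0.48, and the fractions did not overlap. When all 12 human libraries were fitted together, the adjusted p rose to 0.108 for HOXB6, 0.083 for HOXA5, 0.202 for HOXB7 and 0.207 for HOXA7. HOXB7 also missed the threshold without cytoplasm replicate 2 (0.151), and HOXA7 without P-body replicate 1 (0.18), without cytoplasm replicate 1 (0.102) and with library size only (0.107).

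Of the 5 members lower in P-bodies, 3 were well counted. HOXB8 had 7.611 and 6.326 CPM in P-bodies and 10.12 and 9.618 CPM in cytoplasm (log2 change -0.51 ± 0.20, adjusted p = 0.031). HOXD11 had 7.268 and 5.978 CPM against 8.597 and 10.64 CPM (log2 change -0.54, adjusted p = 0.0241). HOXD10 had 4.045 and 3.772 CPM against 7.15 and 5.192 CPM (log2 change -0.66, adjusted p = 0.023). The weakly counted HOXB5, with 34 and 46 counts against 57 and 43, and HOXD9, with 6 and 18 against 25 and 21, had log2 changes of -0.72 and -1.35. These 5 calls were unstable: DESeq2 and the fit over all human libraries called 0 members lower, edgeR with RLE size factors called only HOXD9, and leaving out a library left 1 to 3 (2 without P-body replicate 1, 1 without P-body replicate 2, 2 without cytoplasm replicate 1 and 3 without cytoplasm replicate 2). In the same DESeq2 fit 12 members were higher.

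HOXB9, the most abundant member in HEK293T per kilobase, had 147.6 and 137 CPM in P-bodies and 153.8 and 162.6 CPM in cytoplasm. The fractions did not overlap, but the log2 change of -0.15 ± 0.07 did not pass (adjusted p = 0.0609), except with library size only, where it was -0.28. HOXD13 had 31.13 and 27.39 CPM against 30.29 and 29.02 CPM, and HOXC6 had 17.69 and 18.69 CPM against 15.27 and 19.92 CPM. For both the fractions overlapped. HOXC4 had 11.04 and 11.49 CPM against 11.33 and 13.28 CPM, HOXC9 had 6.034 and 6.5 CPM against 4.74 and 5.362 CPM, and HOXC11 had 6.651 and 6.326 CPM against 7.552 and 8.001 CPM. The log2 changes of these 3 were -0.13, 0.31 and -0.26, and the fractions overlapped only for HOXC4. The remaining well counted members lay between 3.888 and 9.022 CPM in every library. HOXA2 had 5.691 and 5.223 CPM against 5.945 and 5.533 CPM, HOXA3 5.897 and 3.888 CPM against 6.508 and 5.447 CPM, and HOXA6 7.954 and 5.571 CPM against 6.829 and 9.022 CPM. HOXB13 had 5.074 and 6.036 CPM against 5.544 and 8.171 CPM, and HOXC13 had 7.611 and 5.281 CPM against 6.106 and 8.256 CPM. Their log2 changes ran from -0.30 for HOXA3 and HOXB13 to -0.08 for HOXA2, and all 5 overlapped between fractions. Set apart as weakly counted were also HOXA4, HOXB2, HOXB4, HOXC12 and HOXD3, with 13 to 47 counts in each library and none called. HOXD3 passed only without cytoplasm replicate 2 (log2 change 1.30, adjusted p = 0.0183). The other 6 members were under 1 CPM and none was called.

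**Figure D2:**
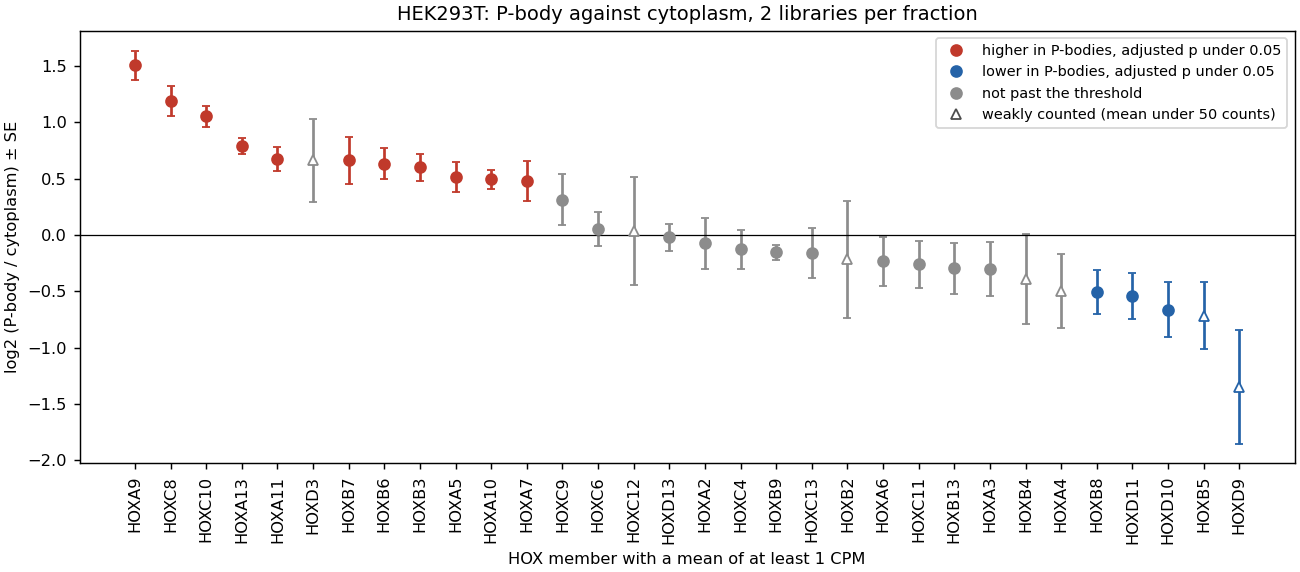
Log2 ratio of P-body to cytoplasm in HEK293T with its SE (y axis) for the expressed HOX members reported by name (x axis; 1 of the 33 is not drawn), ordered by size, from 2 libraries per fraction. Red marks members higher in P-bodies, blue the 5 lower, grey the 16 that did not pass, and open triangles the weakly counted members.

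By cluster, of 11 HOXA members, all expressed in HEK293T, 7 were higher in P-bodies and 0 lower. In the HOXB cluster 3 of 9 expressed members were higher and 2 lower, in HOXC 2 of 8 were higher and 0 lower, and in HOXD 0 of 5 were higher and 3 lower, although the lower calls depended on the processing as given above. By paralog group, 2 of 9 expressed members of groups 1 to 4 were higher and 0 lower. In groups 5 to 8, 5 of 9 were higher and 2 lower, and in groups 9 to 13, 5 of 15 were higher and 3 lower. Among all genes of at least 1 CPM 32.0% were higher and 38.0% lower, and no cluster or group was tested against these shares. Some neighbours share exons, so that their counts could be divided wrongly: HOXB3 with HOXB4 and HOXB6, HOXC4 with HOXC6 and HOXC9, and HOXD10 with HOXD11. Antisense transcripts overlap exons of others, such as HOXA10-AS at HOXA9 and HOXA10. The stranded setting of the counting is not given in the sources used here, so reads of such pairs may not be told apart.

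Whether microRNA target sites go with P-body localisation was a question of the study, and the HOX clusters carry microRNAs of their own, whose sequences show which HOX 3′ untranslated regions (UTRs) they can pair with. Mature sequences from RefSeq (GRCh38.p14) were found for 3 of them, shown because their seeds (bases 2 to 8, in capitals) define the sites counted below. The miR-196 genes lie beside HOX9 genes (MIR196A2 at chr12:53991762-53991783, plus strand, MIR196A1 at chr17:48632532-48632553, minus strand, and MIR196B at chr7:27169528-27169549, minus strand), and MIR10A lies at chr17:48579904-48579926, minus strand, beside HOXB4.
hsa-miR-196a-5p: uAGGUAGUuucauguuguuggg
hsa-miR-196b-5p: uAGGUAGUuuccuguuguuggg
hsa-miR-10a-5p: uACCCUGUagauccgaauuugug
The microRNAs themselves were not measured in these counts.

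The site that pairs with the miR-196 seed, ACTACCT, was searched on the sense strand of the 3′ UTR of 1 transcript per gene (GENCODE 44). It occurred 14 times in 8 of the 39 human members, HOXA5, HOXA7, HOXA9, HOXB1, HOXB6, HOXB7, HOXB13 and HOXC8, and in 7.48% of all 17360 human 3′ UTRs. The miR-10a site, ACAGGGT, occurred once each in 3 members, among them HOXA3 and HOXB3, and in 13.5% of all 3′ UTRs. The windows below, with the seed match in capitals, are shown for HOXA9 and HOXC8, which had the largest changes among the members called higher, for HOXA7, which holds the most sites, and for HOXB3, which was called higher and has a miR-10a site. They lie on the minus strand at chr7:27163254-27163275 and chr7:27162692-27162713 (HOXA9), on the plus strand at chr12:54012231-54012252 (HOXC8, 1 of 3 sites), and on the minus strand at chr7:27154430-27154451 (HOXA7, 1 of 4 sites) and chr17:48549467-48549489 (HOXB3), in hg38.
HOXA9, first site: acaaaaggaaagaaACTACCTt
HOXA9, second site: atgtgcagaaggttACTACCTa
HOXC8: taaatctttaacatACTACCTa
HOXA7: cctactcccctaaaACTACCTa
HOXB3, miR-10a site: tgacttaacgtgaaaACAGGGTa

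Of the 7 expressed HEK293T members with a miR-196 seed match, 6 were higher in P-bodies and 0 lower, with a median log2 change of 0.63. HOXB13 was the exception, at -0.30. Of the 26 expressed members without a match, 6 rose and 5 fell, at a median log2 change of -0.14. Of the 3 members with a miR-10a match, 2 were higher, among them HOXB3, and HOXA3, at -0.30, did not pass. In neurons the same 3 members were expressed and 0 were higher, at a median log2 change of -0.33. Of the 5 expressed there without this match 1 was higher, at a median of 0.37. Over all HEK293T genes of at least 1 CPM with a 3′ UTR, 44.5% of 1046 genes with the miR-196 site were higher in P-bodies, beside 32.2% of 10758 without it. For the miR-10a site it was 37.7% of 1834 with it beside 32.4% of 9970 without it. Genes with the site also had longer 3′ UTRs, with a median of 3424 bases beside 1373 bases for miR-196 in all genes and 1165 beside 883 bases in HOX members, and the part of this length in the counts was not tested. The seed matches were looked up after the P-body values were known, and HOXA7, HOXA5, HOXB6 and HOXB7 among the 6 are those that missed the threshold in the fit over all human libraries.

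HOXB8, the classical target of miR-196, has no perfect seed match but the longest pairing. Its 3′ UTR pairs at 21 of 22 bases with hsa-miR-196a-5p at chr17:48612770-48612791 (minus strand, hg38). In capitals are the bases that pair, and the lower-case base lies within the seed match, opposite a U with which it can form a G-U wobble.
HOXB8: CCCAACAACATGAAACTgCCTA
Among the 17302 human 3′ UTRs of at least 22 bases, only that of HOXB8 paired at as many positions. As given above, HOXB8 was not higher in P-bodies, with a log2 change of -0.51 that passed in 4 of 10 alternatives.

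**Figure D3:**
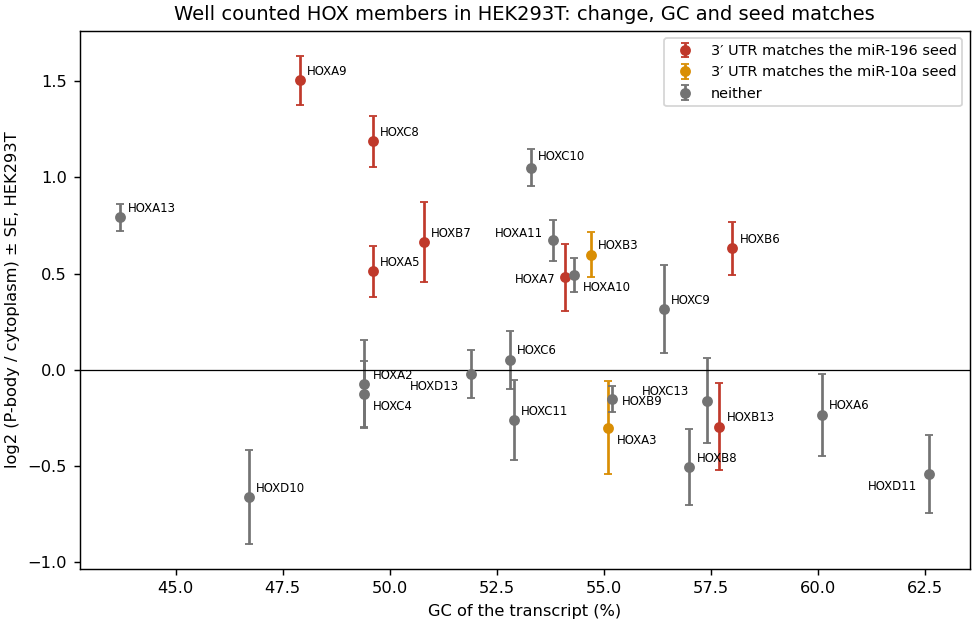
Log2 ratio of P-body to cytoplasm with its SE (y axis) against the GC content of the transcript in percent (x axis) for the well counted HOX members of HEK293T (1 of the 26 is not drawn), coloured by seed match in the 3′ UTR. Members with a miR-196 match (red) lie above 0 except HOXB13, and those without a match (grey) lie on both sides.

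Other properties of the transcripts were also described against the HEK293T change, over the 26 well counted members, which share libraries and, in part, exons. Spearman's rho with GC content was -0.444, beside -0.571 over 10223 genes counted as well. The enriched members had a median GC of 52% and the members that did not pass 55.1%, beside 46.4% for all well counted genes. The same coefficient was -0.357 with the GC of the 3′ UTR, 0.199 with its length and 0.0537 with transcript length, where all genes gave -0.519, 0.288 and 0.317. With mean CPM it was 0.659, beside 0.356 over 10462 genes, although mean CPM contains the P-body level itself. With paralog group it was -0.15.

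Neurons held a different part of the clusters. HOXA2, which specifies the second branchial arch and hindbrain segments, was the most abundant member per kilobase, with 180.3 and 172 CPM in P-bodies and 135.9 and 137.2 CPM in cytoplasm. It was 1.29-fold higher in P-bodies, or 0.37 ± 0.10 on the log2 scale (edgeR adjusted p = 0.0137), and it was the only expressed member called. Both P-body libraries lay above both cytoplasm libraries, but the call was lost without cytoplasm replicate 1 (adjusted p = 0.143), without cytoplasm replicate 2 (0.118) and in the fit over all human libraries (0.0707). Of all genes tested 14.6% were higher and 14.1% lower in neuron P-bodies, and of those of at least 1 CPM 19.9% and 21.1%, so 1 of 8 expressed HOX members was not above the background. With library size only, all-gene calls moved from 3220 higher and 3123 lower to 3839 and 2356. In hg38 HOXA2 (ENSG00000105996.7) lies at chr7:27100354-27102686 on the minus strand.

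The other well counted members in neurons did not pass. HOXB3 had 36.85 and 48.85 CPM in P-bodies and 57.79 and 49.69 CPM in cytoplasm (log2 change -0.33 ± 0.17, edgeR adjusted p = 0.188). It passed as lower without P-body replicate 2 (log2 change -0.54, adjusted p = 0.00932) and in the fit over all human libraries (-0.44, adjusted p = 0.032). HOXA3 had 13.13 and 11.97 CPM against 15.96 and 16.4 CPM (log2 change -0.37 ± 0.26). The fractions did not overlap for either gene. HOXB2, which acts with HOXA2 in the hindbrain, had 9.708 and 8.01 CPM against 7.176 and 8.499 CPM. It overlapped between fractions, at a log2 change of 0.18. The weakly counted HOXA4, HOXC4 and HOXD3 had 4 to 20 counts in each library and were not called.

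Among the 31 members under 1 CPM in neurons, HOXD12 and HOXD10 were called higher in P-bodies, and among all genes under 1 CPM 3.81% were called higher and 0.136% lower. HOXD12 had 21 and 15 counts in P-bodies and 0 and 0 in cytoplasm, at least 14.5-fold higher against 3 counts over the cytoplasm libraries. HOXD10 had 8 and 19 counts against 0 and 1 (adjusted p = 0.0482), a ratio of 32.5 with a 95% exact counting interval from 5.36 to 1330, and was not called by DESeq2 (0.0716) or without P-body replicate 2 (0.106), cytoplasm replicate 1 (0.296) or cytoplasm replicate 2 (0.0977). Members of groups 9 to 13 together summed to 10.48 and 9.493 CPM in neuron P-bodies and 2.172 and 0.5 CPM in cytoplasm. The neuron P-body libraries are also those with the lowest agreement between replicates.

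The cell types made from the same stem cell line were compared directly, within each fraction, to ask which HOX members differ between neurons and liver bud progenitors. In cytoplasm, 9 of 36 members tested were higher in neurons and 0 lower, beside 26.0% and 25.8% of all genes, so the share called higher was near the background. Of the 36, 31 averaged under 1 CPM over these 4 libraries. The 5 at 1 CPM or more were all called higher, but no member averaged 1 CPM in liver bud progenitors. These 5 therefore reached that mean only through their neuron libraries, so their shared direction follows from the filter. With library size only, all-gene calls moved from 5696 higher and 5648 lower to 4173 and 7270. HOXA2 had 1439 and 1372 counts in neurons and 4 and 1 in liver bud progenitors, 8.80 ± 0.23 apart on the log2 scale (edgeR adjusted p = 7.66e-47). HOXB3 had 612 and 497 counts against 4 and 3 (log2 difference 6.99), and HOXA3 169 and 164 against 3 and 1 (6.03). HOXB2 had 76 and 85 counts against 1 and 2, a ratio of 34 with an exact counting interval from 11.4 to 167. All 4 were far above the liver bud libraries and kept their calls under every alternative tried. Of those under 1 CPM in this contrast HOXD3 had 17 and 17 counts against 1 and 1 (ratio 10.8, interval from 2.76 to 92.5), HOXC4 9 and 11 against 0 and 2 (6.33, from 1.54 to 55.9) and HOXB4 7 and 12 against 2 and 0 (6.02, from 1.45 to 53.3). HOXB5 had 14 and 5 against 0 and 0, at least 4.01-fold higher by the floor of 3 counts over the liver bud pair. HOXC4 and HOXB4 were not called by DESeq2 (0.149 and 0.184) or with library size only (0.0608 and 0.0798). HOXC4 also missed without liver bud cytoplasm replicate 1 (0.247) or neuron cytoplasm replicate 2 (0.0898), and HOXB4 without liver bud cytoplasm replicate 2 (0.317) or neuron cytoplasm replicate 2 (0.188). HOXB5 missed without liver bud cytoplasm replicate 2 (0.0515) or neuron cytoplasm replicate 1 (0.0681). In these bulk fractions, fewer cells expressing a gene and less RNA per cell cannot be told apart.

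In P-bodies, 10 of 39 members were higher in neurons and 0 lower, beside 18.4% and 22.7% of all genes. Here 32 of the 39 averaged under 1 CPM. Of the 7 at 1 CPM or more, 6 were called higher, but these 7 too reached that mean only through their neuron libraries. HOXA2 had 1634 and 1739 counts against 6 and 6 (log2 difference 8.09), and HOXB3 334 and 494 against 4 and 4 (6.63). HOXA3 had 119 and 121 counts against 1 and 2, a ratio of 87.5 with an exact counting interval from 29.6 to 427. HOXB2 had 88 and 81 counts against 3 and 3 (log2 difference 4.75). As in cytoplasm, the neuron values of these 4 stood clear of the liver bud values. HOXC4, with 17 and 20 counts, and HOXA4, with 16 and 18, were at 0 in both liver bud P-body libraries and were at least 13.5-fold and 12.4-fold higher in neurons. HOXB4, with 12 and 7 counts and also at 0 there, was at least 6.93-fold higher. HOXD3 had 18 and 18 counts against 1 and 1 (ratio 19.7, interval from 5.07 to 169), and HOXD10 had 8 and 19 against 0 and 1 (29.5, from 4.87 to 1210). Left-out libraries mattered for the last 3: HOXB4 missed without liver bud P-body replicate 1 (0.154) or 2 (0.158), HOXD3 without replicate 1 (0.138) or 2 (0.145), and HOXD10 without liver bud P-body replicate 1 (0.247) or 2 (0.0867) or neuron P-body replicate 2 (0.0518). HOXD10 was also not called by DESeq2 (0.0617).

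**Figure D4:**
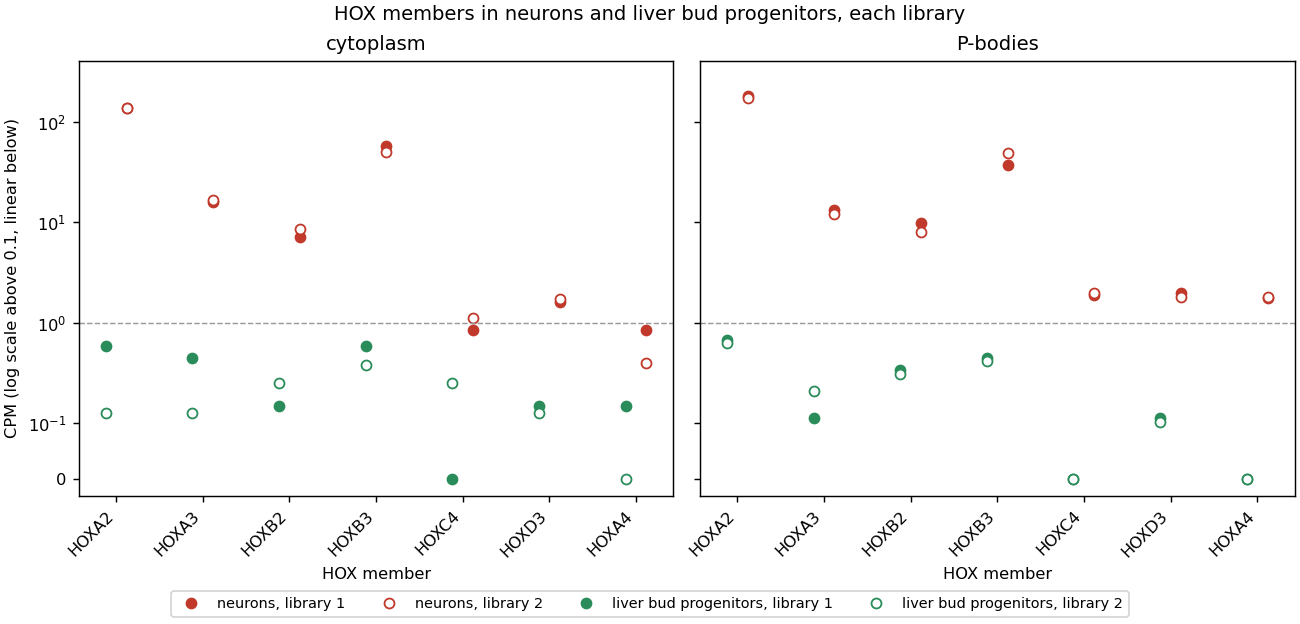
CPM of HOX members expressed in neurons (x axis; 1 of the 8 is not drawn) in each cytoplasm library (left) and each P-body library (right) of neurons and liver bud progenitors, on a y axis that is logarithmic above 0.1 and linear below, with a dashed line at 1 CPM. HOXA2 lies between 135.9 and 180.3 CPM in neurons, and the liver bud values lie near or under 1 CPM in both fractions.

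Whether P-body enrichment itself differed between these cells could be tested for no member with any precision, because the liver bud ratio rests on at most 8 counts per library. In liver bud progenitors 34 members were tested and 0 were called by edgeR in either direction, with 0 at an unadjusted p under 0.05 and a smallest unadjusted p of 0.0693, while 21.4% of all genes were higher and 17.1% lower (4708 and 3747, but 3822 and 4850 with library size only). DESeq2 gave no adjusted p for any of the 34. For the difference in enrichment, 0 of 39 members passed in edgeR, 0 had an unadjusted p under 0.05 and 0 passed in DESeq2, beside 9.21% and 8.50% of all genes (2050 and 1892, but 3520 and 940 with library size only). DESeq2 gave no adjusted p for 23 of these 39.

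In mouse ES cells, of the 13 expressed members 5 were higher and 0 lower, beside 33.8% and 20.2% of all genes of at least 1 CPM and 25.8% and 20.6% of all genes tested. Hoxa2 had 7.376 and 5.379 CPM in P-bodies and 3.401 and 4.662 CPM in cytoplasm, or 0.66 ± 0.26 on the log2 scale (edgeR adjusted p = 0.0401). Both P-body libraries exceeded both cytoplasm libraries. The weakly counted members called were Hoxa9, with 30 and 23 counts in P-bodies against 7 and 8 (log2 change 1.76), Hoxa5, with 29 and 21 against 9 and 8 (2.82-fold), and Hoxb4, with 32 and 28 against 15 and 16 (0.90).

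These mouse calls depended on the scaling. With library size only, which lowered the median log2 change of genes of at least 1 CPM from 0.04 to -0.36 and all-gene calls from 4104 higher and 3271 lower to 2591 and 6609, 2 of the 5 passed. Hoxa2, at a log2 change of 0.26, and Hoxb4, at 0.50, were among those that did not. Hoxd9, with 13 and 8 counts against 23 and 20, passed as lower (-1.47, from -1.07). Hoxa9 passed under every alternative tried. DESeq2 called 2 members, but neither Hoxa2, Hoxa5 nor Hoxb4. Hoxa2 missed without P-body replicate 1 (adjusted p = 0.38) or cytoplasm replicate 1 (0.219), Hoxa5 without P-body replicate 1 (0.106), and Hoxb4 whichever library was left out (0.103 to 0.197). The other weakly counted members, Hoxa3, Hoxa6, Hoxa7, Hoxa10, Hoxb9, Hoxc4 and Hoxc13, had 7 to 46 counts in each library and did not pass. The 11 members under 1 CPM were not called.

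Between cell types, 17 members were expressed in at least 2. HOXA2, HOXA3 and HOXC4 were expressed in HEK293T, neurons and mESC. The log2 change of HOXA2 was -0.08, 0.37 and 0.66 in that order. HOXA3 had -0.30, -0.37 and -0.28, none of which passed, and HOXC4 had -0.13, 0.98 and 0.54, none of which passed either. HOXA9 and HOXA5, called higher in HEK293T, were also called higher in mESC as weakly counted genes. HOXB3 was higher in HEK293T P-bodies (0.60) and at -0.33 in neurons. These values come from different library types and, for mESC, another species, so differences between them were not tested.

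**Figure D5:**
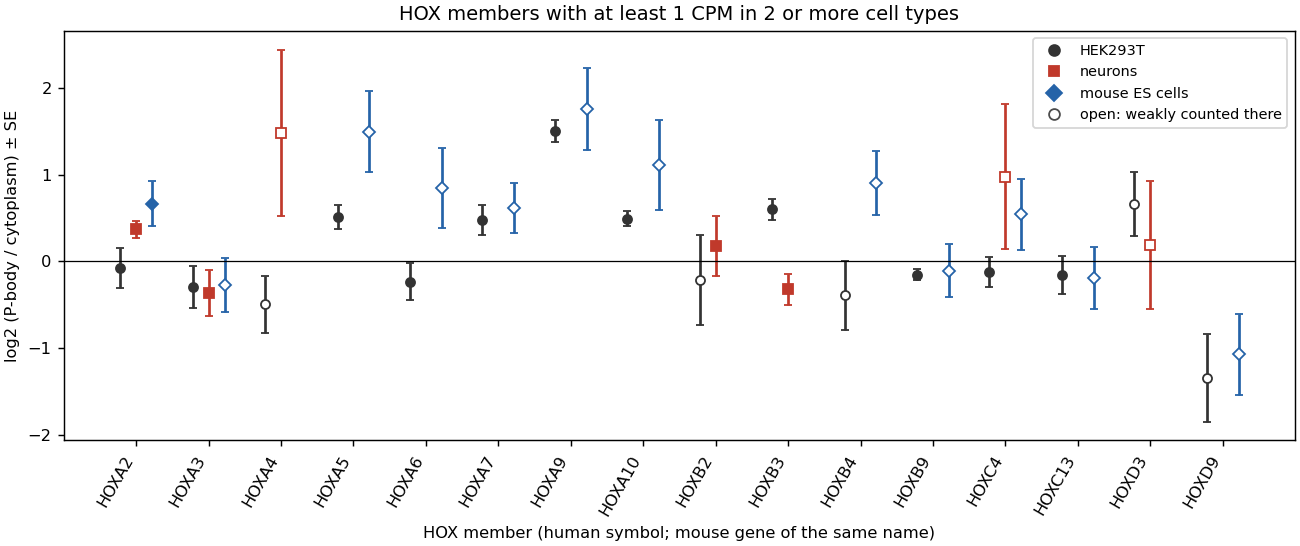
Log2 ratio of P-body to cytoplasm with its SE (y axis) for the HOX members expressed in at least 2 cell types (x axis; 1 of the 17 is not drawn), in HEK293T, neurons and mouse ES cells, with open symbols for weakly counted members. HOXA9 lies above 1.5 in HEK293T and mESC, and HOXA3 lies slightly below 0 in all 3.

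The partners of HOX proteins were described from lists chosen for their function. Of 9 TALE cofactors measured, 2 were higher and 2 lower in the P-bodies of HEK293T and again in those of neurons, 4 and 2 in liver bud progenitors, and 5 and 0 in mESC. Their median log2 change was -0.18 in HEK293T, -0.07 in neurons, -0.19 in liver bud progenitors and 0.58 in mESC, beside -0.01, 0.19, -0.09 and -0.11 over all genes tested. Nearly all of the cofactors had at least 1 CPM, and over all genes at that level the medians were -0.13, -0.12, 0.05 and 0.04. Of all genes tested, as given above, 19.3% were higher and 22.8% lower in HEK293T, 14.6% and 14.1% in neurons, 25.8% and 20.6% in mESC, and 21.4% and 17.1% in liver bud progenitors. The 2 of 9 in HEK293T and neurons were near these shares. Among genes of at least 1 CPM, 32.0% were higher and 38.0% lower in HEK293T, so the 2 of 9 there lay below those shares. In neurons the shares at that level were 19.9% and 21.1%, near the 2 of 9. In cytoplasm 26.0% of all genes were higher and 25.8% lower in neurons than in liver bud progenitors. MEIS2 had log2 changes of 1.49 in HEK293T, 1.29 in neurons, 0.74 in liver bud progenitors and 1.37 (Meis2) in mESC, and passed in all 4, although not by DESeq2 (adjusted p = 0.0597) or without cytoplasm replicate 2 (0.0634) in liver bud progenitors. MEIS1 was higher in P-bodies of HEK293T (0.85) and neurons (1.25) but lower in those of liver bud progenitors (-0.98, at 7.962 and 8.698 CPM against 18.59 and 14.55 CPM). The liver bud values of MEIS1 and MEIS2, under 20 CPM, are named after they were seen. PBX2 was lower in HEK293T, liver bud progenitors and neurons, at -0.96, -0.61 and -0.94. In liver bud progenitors PBX3 (0.33) was higher, but not by DESeq2 (adjusted p = 0.175), with library size only (0.39), with filterByExpr (0.0771), with all human libraries (0.0744), or without P-body replicate 1 (0.194) or cytoplasm replicate 2 (0.281). All 9 were more abundant in neuron than in liver bud cytoplasm, led by MEIS2 and MEIS1 with log2 differences of 6.89 and 5.37, and the median of the list was 2.09 beside -0.16 over all genes tested.

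Of the noncoding RNAs of the clusters, 3 of 11 were higher and 3 lower in HEK293T P-bodies, at a median log2 change of -0.26, where 19.3% of all genes were higher and 22.8% lower. HOTAIR, HAGLR and HOXA10-AS were higher (log2 changes 0.92, 0.71 and 0.73), and HOTAIRM1, HOXA11-AS and HOXA-AS3 lower (-1.67, -0.98 and -0.61), all at a mean under 20 CPM and named here after their values were seen. In the other human cells none was called, of 10 in neurons (median 1.75, 2 of them at 1 CPM or more) and 7 in liver bud progenitors (median -0.29, none at 1 CPM). In cytoplasm 1 of 8, HOTAIRM1, was higher in neurons than in liver bud progenitors. Of the retinoic acid pathway, 1 gene was higher and 5 lower of 16 in HEK293T, 0 and 4 of 16 in neurons, 0 and 4 of 15 in liver bud progenitors, and 1 and 1 of 13 in mESC, at median log2 changes of -0.31, -0.17, -0.51 and -0.14. The all-gene medians and shares for these cells are those given with the TALE cofactors, among them 22.8% lower in HEK293T and 14.1% in neurons. The receptor RARB was higher (0.91) and the retinoic acid producing enzyme ALDH1A2 lower (-0.94) in HEK293T P-bodies. The degrading enzyme CYP26B1 and the binding protein CRABP2 were lower in neuron P-bodies (-1.46 and -1.32), and CYP26B1 and CRABP1 were higher in neuron than in liver bud cytoplasm by 8.33 and 6.30 on the log2 scale, where 8 of 16 were higher and 4 lower (median 0.26).

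Among brain regional factors, 5 were higher and 2 lower of 14 in HEK293T, 2 and 1 of 14 in neurons, 1 and 0 of 14 in liver bud progenitors and 1 and 0 of 7 in mESC, at median log2 changes of 0.06, 1.22, -0.18 and 0.05, beside 19.3% higher and 22.8% lower of all genes in HEK293T and 14.6% and 14.1% in neurons. In the same order, 10, 6, 2 and 5 of these factors had at least 1 CPM. EMX2 and OTX2, both factors of the anterior brain, were higher in HEK293T P-bodies (1.87 and 1.12). OTX2 was higher in liver bud P-bodies (0.43), and PAX2 lower in neuron P-bodies (-1.02). In cytoplasm PAX2, of the midbrain-hindbrain boundary, was higher in neurons by 7.31 and OTX2 differed by -8.81 on the log2 scale (4 of 13 higher and 1 lower, median 0.72). In the same libraries HOXA2, HOXA3, HOXB2 and HOXB3 were higher in neurons. Of the ANTP-class relatives, homeobox genes akin to HOX such as the CDX and GSX families, 0 were higher and 2 lower of 11 in HEK293T, 1 and 1 of 11 in neurons, 1 and 0 of 11 in liver bud progenitors and 1 and 1 of 4 in mESC, at medians of -0.33, 0.93, -0.31 and 0.29, beside -0.01, 0.19, -0.09 and -0.11 over all genes. The all-gene shares called are those given with the TALE cofactors. Only 2, 2, 3 and 2 of these relatives, in the same order, had at least 1 CPM, so the human medians rest mostly on genes below it. In neurons those 2 were at -0.97 and -0.52, and the 1 called higher averaged under 1 CPM. In cytoplasm 3 of 12 were higher and 3 lower in neurons (median -0.09). GSX1 was lower in neuron P-bodies (-0.97), but not without cytoplasm replicate 1 (adjusted p = 0.206), and Cdx1 in mESC P-bodies (-0.35), but not by DESeq2 (0.12) or without P-body replicate 1 (0.0532), P-body replicate 2 (0.144) or cytoplasm replicate 2 (0.224).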

How the data were processed

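The authors deposited read counts per gene symbol. For snapTotal-seq their methods name the nf-core RNA-seq pipeline, salmon, the UCSC hg38 or mm10 refGene annotation and removal of genes under 10 reads, which is also the smallest gene total in both tables. For Smart-seq they name hisat2 and featureCounts, and which made the polyA columns is not given in the sources used here. Per the labels, the submitters' processing notes name DESeq2. The deposited DESeq2 comparisons (log2 fold changes and adjusted p-values) were not used.

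Groups came from the labels. Counts were tested in R 4.3.3 (edgeR 4.0.16, quasi-likelihood F-test) on the whole table, with TMM normalization, 2 P-body against 2 cytoplasm libraries of a cell type, no covariate and no minimum fold. Genes at 0 in all compared libraries were dropped, p-values were adjusted by Benjamini-Hochberg over all genes, and an adjusted p under 0.05 was called. Tests were two-sided. Cell type contrasts used 4 libraries and the interaction 8. SE is the log2 change divided by the root of F. The pipeline was tested on simulated data. Floors and exact (Clopper-Pearson) 95% intervals cover counting error only. Library totals were 6368953 to 17972284 counts.

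Some genes are not reported here by name. Every other well counted member was named, weakly counted ones with their counts, members under 1 CPM only if called, and from each list up to 2 called genes per direction of at least 20 CPM. The members and lists were chosen with earlier results of these data known. Transcripts came from GENCODE 44 (hg38) and M21 (mm10), which held 92.5% and 97.6% of the symbols. Alternatives were DESeq2 1.42.0, RLE factors, library size only, filterByExpr, a replicate block, all 12 human libraries together, and leaving out each library.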

Additional observations from a re-analysis of the deposited data

Results flagged for a closer look

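For no HOX member did the enrichment in P-bodies differ detectably between the cells made from UCLA4. Of the list genes named for these cells (neurons and liver bud progenitors), 4 differed by edgeR's interaction test over 8 libraries. MEIS1 differed by 2.23 ± 0.16 on the log2 scale (adjusted p = 2.58e-07), as it was higher in both neuron P-body libraries and lower in both liver bud P-body libraries than in cytoplasm. MEIS2, higher in P-bodies of both cells, differed by 0.55 ± 0.13 (adjusted p = 0.00809), and did not pass without liver bud cytoplasm replicate 1 (0.47, adjusted p = 0.13) or neuron cytoplasm replicate 2 (0.45, adjusted p = 0.0517). CRABP2 differed by -1.41 ± 0.19 (adjusted p = 9.34e-05), with a log2 change of 0.08 in liver bud progenitors and -1.32 in neurons. OTX2 differed by 1.74 ± 0.56 (adjusted p = 0.0428), but was at most 1.582 CPM in neuron libraries, was not called by DESeq2 (1.83, adjusted p = 0.0697), and missed the threshold without any 1 of 7 libraries. Library size only moved the median of genes of at least 1 CPM from -0.04 to 0.32 in this comparison.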

How the results depend on the processing

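With 2 libraries per fraction, calls near the threshold were fragile. Of the 17 members called in HEK293T 8 kept their call in every alternative, all of them higher in P-bodies. In neurons and mESC 1 of 3 and 1 of 5 did (HOXD12 and Hoxa9), and 6 of 9 and 7 of 10 in the cytoplasm and P-bodies of neurons against liver bud progenitors. No called member changed sign, and 29 of 786 alternative values, all of members that passed in neither fit, had the other sign. Of the alternative values 82 lost a call and 8 gained one. Members called lower in HEK293T were 5, but 0 with DESeq2, 1 with RLE size factors, 0 with all human libraries and 1 to 3 when a library was left out. Members called higher in neurons were 3, but 6 with all human libraries, which also called 1 lower, and 1 to 4 higher and 0 to 1 lower when a library was left out (1 higher without cytoplasm replicate 1 or 2, 2 higher and 1 lower without P-body replicate 2). In mESC 5 were higher, but 2 with DESeq2, 2 with library size only and 3 with filterByExpr, the last 2 of which called 1 lower, and 2 to 4 when a library was left out (2 without P-body replicate 1, 3 without cytoplasm replicate 1). The cause of these changes was not tested. Leaving out a library gave 11 to 12 members higher in HEK293T, 7 to 8 higher in neuron cytoplasm and 7 to 14 in neuron P-bodies. A lone library was assumed to vary like the rest. With the replicate number as a block, the counts were 12 and 5 in HEK293T, 2 higher in neurons, 5 higher in mESC, 7 and 8 higher for neurons against liver bud progenitors in cytoplasm and P-bodies, and 0 in liver bud progenitors and for the interaction. It removed HOXD10 in neurons, HOXB4 and HOXC4 in the cytoplasm contrast and HOXB4 and HOXD10 in the P-body contrast. Deviations of same-numbered libraries correlated at -0.0276 in HEK293T, 0.0161 in neurons, -0.00367 in liver bud progenitors and 0.0364 in mESC, so no shared deviation was seen. With 2 libraries per fraction this cannot show whether the numbers pair a P-body library with its source fraction. Scaling by library size only moved the median log2 change of genes of at least 1 CPM to -0.26 (from -0.13) in HEK293T, 0.05 (from -0.12) in neurons and -0.14 (from 0.05) in liver bud progenitors. For named list genes 28 of 434 alternative values lost a call. Low HOX counts limit the liver bud values, where no member passed 8 counts in a library.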
